A study of Homo sapiens with 6 samples.

Results

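The 5 NF-kB subunit genes (NFKB1, NFKB2, REL, RELA and RELB) were taken by gene symbol from a table of 58735 genes, in which each symbol matched 1 gene. Expression had been measured by poly(A)-selected RNA-seq in U251, an established human glioblastoma cell line cultured in high-glucose medium with serum. Near confluence the cells received sterile deionized water (the NC group, n = 3) or recombinant human tumor necrosis factor-α at 10 ng/mL (the TNF-α group, n = 3), and RNA was taken 24 h later in both groups. The labels call the replicates of each group independent biological replicates. A single cell line, dose and time were measured, and no protein. All levels are FPKM computed by the authors, that is fragments scaled by exon length and by a library size, so that levels can be compared between genes of different length. Between libraries they depend on that library size, and values in TPM, which rescales each library to a fixed sum, are given beside them. Of the 5 genes, 4 reached 1 FPKM in 3 or more libraries and were tested among 12136 genes. REL was below this limit.

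NF-kB is a family of transcription factors that bind DNA as dimers of these subunits. RelA (the product of RELA), RelB (RELB) and c-Rel (REL) carry a domain that activates transcription, whereas NFKB1 and NFKB2 encode long precursors that are trimmed to DNA-binding partners without such a domain and that, untrimmed, hold other subunits in the cytoplasm. In the canonical pathway, which the TNF receptor switches on, the IKK complex marks inhibitory IkB proteins for destruction and frees dimers that contain RelA or c-Rel. In the non-canonical pathway the kinase NIK drives the trimming of the NFKB2 precursor, whose product pairs with RelB. Several subunit genes are themselves known NF-kB targets in many cell types.

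Promoter sequences are shown because the DNA motif of the family can be looked for by letter in the subunits' own promoters, and the result set beside how each transcript moved. The RefSeq promoter table (GRCh38.p14) held 8 promoters of 4 members (NFKB1, NFKB2, REL and RELA), each of 300 bases from 250 bases before to 50 bases after a transcript start. The stretch that ends just before the annotated NFKB1 gene is given at chr4:102501109-102501328 on the plus strand, 220 bases long. It lies outside the gene in GENCODE release 29, and capitals mark a match to the kB consensus, the DNA motif of NF-kB dimers, that begins 49 bases before the RefSeq start.
NFKB1 upstream: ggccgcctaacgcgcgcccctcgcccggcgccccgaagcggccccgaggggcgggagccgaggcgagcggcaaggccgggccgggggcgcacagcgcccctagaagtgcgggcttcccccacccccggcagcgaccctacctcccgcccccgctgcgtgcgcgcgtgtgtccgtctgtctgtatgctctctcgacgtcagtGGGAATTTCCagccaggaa
The other matches are shown as windows of 30 bases on the plus strand, again with the match in capitals. The REL window (chr2:60881518-60881547) starts its match 47 bases before the RefSeq start, within an exon of 1 of 3 GENCODE transcripts. The NFKB2 windows each lie before 1 of a pair of starts, both of which are downstream of the annotated start of the gene. Windows a (chr10:102394462-102394491) and b (chr10:102394490-102394519) hold matches beginning 107 and 78 bases before 1 of these starts and inside an exon of 3 of 9 transcripts. Window c (chr10:102395519-102395548) is intronic, with its match beginning 176 bases before the other start. Window d (chr10:102395674-102395703) holds a match 21 bases before that start, in an exon of 1 of 9 transcripts.
REL window: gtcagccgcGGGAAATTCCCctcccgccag
NFKB2 window a: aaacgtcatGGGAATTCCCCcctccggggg
NFKB2 window b: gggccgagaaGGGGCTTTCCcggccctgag
NFKB2 window c: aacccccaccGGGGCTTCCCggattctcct
NFKB2 window d: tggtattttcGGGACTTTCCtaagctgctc
Both strands were searched and overlapping matches were counted. In the REL window and NFKB2 window a, 11 capital letters hold 2 overlapping matches. The 3 NFKB2 promoters held 0, 3 and 2 matches, the 2 NFKB1 promoters 1 and 0, the REL promoter 2, and neither of the 2 RELA promoters held any. A match was present in 4 of the 8 member promoters and in 3956 of all 35116 promoters (11.27%), and 2.04% of all promoters held 2 or more. These are matches of letters only. Binding was not measured, and a RELB promoter was not analysed here.

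The libraries held 31992167 to 37897044 fragments in genes, called reads here. TNF-α replicates 2 and 3 stood apart from the other 4 libraries in the kind of gene their reads came from. Genes with over 8 kb of exon took 28.8% to 29.1% of the reads in the NC libraries and TNF-α replicate 1, and 16.6% and 17.9% in TNF-α replicates 2 and 3. The 82 ribosomal protein genes, which are short, took 2.62% to 2.90% against 7.30% and 6.26%. Among tested genes with a GC content over 55% (3291 genes), the median log2 ratio of FPKM to the NC mean was -0.04, 0.84 and 0.69 in TNF-α replicates 1, 2 and 3, and among genes over 8 kb (2369 genes) it was 0.0049, -0.76 and -0.69. The members differ in both properties. RELB has 3035 bases of exon and 65.4% GC, NFKB2 4484 and 62.4%, RELA 5464 and 57.1%, NFKB1 6257 and 50.1%, and REL 13170 and 38.7%. The levels of each member are therefore given for every library, and its fold change with and without the libraries that stood apart. Without TNF-α replicate 1, 79.4% of the tested genes passed the threshold used below, and without TNF-α replicates 2 and 3 the treated arm is 1 library with no spread of its own, so that both are given as values without a test. As to identity, 7 of 10 glial and glioma markers reached 1 FPKM in all libraries, with summed levels of 614 to 666 in NC and 728 to 1232 in TNF-α libraries, mostly from VIM (325 to 362 and 434 to 974). GFAP went the other way, at 8.16, 7.10 and 9.47 in NC and 1.58, 2.60 and 2.39 in TNF-α libraries. SOX2 was also lower, at 60.8, 58.9 and 66.3 in NC and 57.8, 22.6 and 30.4 in TNF-α libraries. So was FABP7, at 3.56, 3.30 and 3.18 and at 1.33, 3.10 and 2.29. SOX9 was above the controls in TNF-α replicate 1 and below them in replicates 2 and 3. NES showed the reverse, and CD44 was slightly above the controls in all TNF-α libraries. AQP4, a marker of mature astrocytes, was at 0 in all, and S100B and OLIG2 reached 0.168 and 0.0186 FPKM at most. None of 10 immune markers reached 1 FPKM in all libraries, and PTPRC, CD3E and MS4A1 were at 0 throughout. The highest endothelial marker value was 0.332. Summed immune marker FPKM was 0.729 to 0.963 in NC and 0.600 to 1.74 in TNF-α libraries.

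Transcripts of NFKB2 and RELB rose in the TNF-α group, where they were the most and the second most abundant of the 5 subunit transcripts. RELA and NFKB1 were, in FPKM, higher in every TNF-α library than in every NC library but did not pass the threshold, and REL was the scarcest transcript in all 6 libraries. Over all genes, 87 of 12136 were higher at an adjusted p under 0.05 (0.717%) and 36 were lower (0.297%), and 2 of the 4 tested subunits were among the higher and 0 among the lower. At an unadjusted p under 0.05, 1495 genes were higher and 1447 lower. Every TNF-α library exceeded every NC library for all 4 tested subunits, and for 14.8% of all tested genes. In bulk RNA, a change in the share of cells that express a gene and a change in RNA per cell cannot be told apart.

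**Figure D1:**
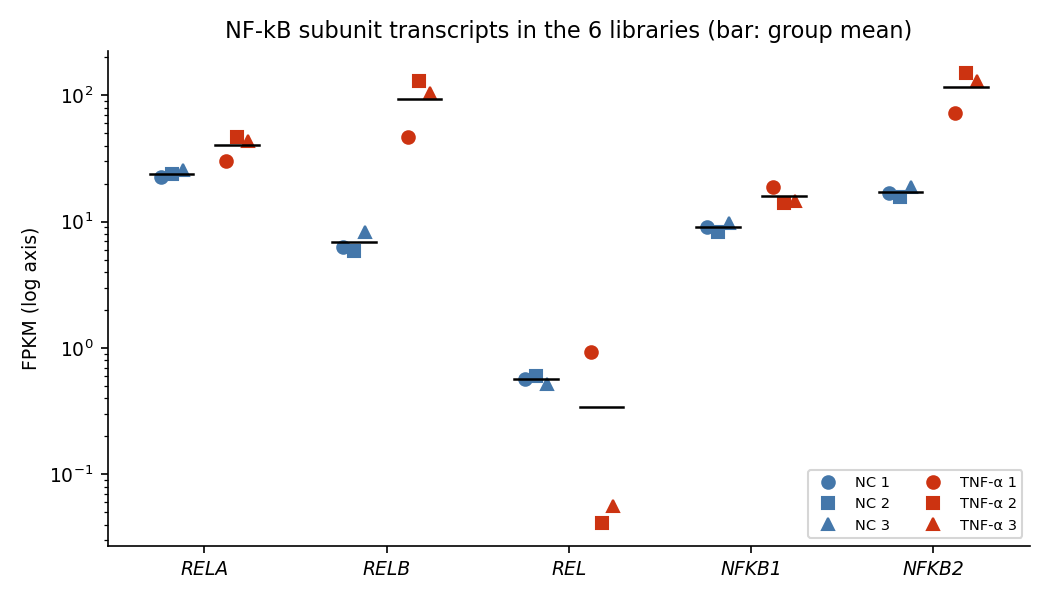
FPKM (log axis) of the 5 subunit genes in each library, NC in blue and TNF-α in red, with circles, squares and triangles for replicates 1, 2 and 3 and a bar at each group mean (n = 3). RELB and NFKB2 were separated most, from 5.90 to 8.34 against 46.8 to 129.7 and from 15.8 to 18.7 against 71.9 to 149.6, while the TNF-α values of REL lay on both sides of its NC values.

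RELB (ENSG00000104856, chr19:45001430-45038198, plus strand) encodes the activating partner in the non-canonical pathway. The NC libraries had 6.31, 5.90 and 8.34 FPKM, and the TNF-α libraries, here as below in the order of replicates 1, 2 and 3, had 46.8, 129.7 and 104.8 FPKM. All TNF-α libraries were far above all NC libraries, and replicate 1 was the lowest of the treated libraries. The means were 6.85 ± 1.31 and 93.7 ± 42.6 (SD, n = 3 each), a 13.7-fold difference that rested on 587 to 813 reads per NC library and 4562 to 10204 per TNF-α library. On the log2(FPKM + 1) scale, which understates changes of low genes, the fold change was 3.48 (SE 0.39, limma adjusted p = 0.0185), and it ranked 8 among the 12136 genes by size. With TNF-α replicates 2 and 3 left out it was 2.62, and with TNF-α replicate 1 left out 3.92. RELB was 6.83-fold above the NC mean in TNF-α replicate 1 and 18.9- and 15.3-fold above it in replicates 2 and 3. In TPM these folds were 6.69, 10.7 and 9.78.

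NFKB2 (ENSG00000077150, chr10:102394110-102402529, plus strand) encodes the precursor that is trimmed in the non-canonical pathway. It was measured at 17.0, 15.8 and 18.7 FPKM under water and at 71.9, 149.6 and 128.7 FPKM under TNF-α. The groups did not overlap, and replicate 1 was again the lowest treated library. The means were 17.2 ± 1.45 and 117 ± 40.2 (SD, n = 3 each), a 6.80-fold difference. The log2 fold change was 2.63 (SE 0.29, limma adjusted p = 0.0173), rank 20 of all tested genes. It was 2.01 without TNF-α replicates 2 and 3 and 2.95 without replicate 1. The TNF-α libraries were 4.19-, 8.72- and 7.50-fold above the NC mean in FPKM and 4.09-, 4.91- and 4.79-fold above it in TPM. For both NFKB2 and RELB the adjusted p was over 0.05 in each of the 5 fits that left out 1 library other than TNF-α replicate 1, with the highest at 0.152 and 0.151 in limma.

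NFKB1 (ENSG00000109320, chr4:102501329-102617302, plus strand) encodes the precursor of the usual partner of RelA. The controls had 9.04, 8.33 and 9.77 FPKM, and the treated libraries 18.9, 14.1 and 14.6 FPKM. Here TNF-α replicate 1 was the highest library, the reverse of the order seen for RELB and NFKB2. The means were 9.05 ± 0.719 and 15.9 ± 2.65 (SD, n = 3 each), with a log2 fold change of 0.74 (SE 0.16, limma adjusted p = 0.121). In TPM, NFKB1 was 34.9, 32.5 and 36.7 in NC and 71.0, 30.4 and 35.9 in TNF-α libraries. On that scale the groups overlapped, since only replicate 1 exceeded the NC libraries. The log2 fold change in FPKM was 0.99 in replicate 1 alone against NC and 0.62 without replicate 1. After a correction for GC content and length, with which 1.32% of tested genes were higher past the threshold, it was 0.79 (limma adjusted p = 0.0298).

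RELA (ENSG00000173039, chr11:65653596-65663094, minus strand) encodes the main activating subunit of the canonical pathway. The controls had 22.6, 23.7 and 25.5 FPKM, and the treated libraries 30.3, 46.5 and 43.7 FPKM. No library of a group reached the other group, and TNF-α replicate 1 was nearest to the controls. The means were 23.9 ± 1.44 and 40.1 ± 8.66 (SD, n = 3 each), with a log2 fold change of 0.70 (SE 0.19, limma adjusted p = 0.194). It was 0.33 without TNF-α replicates 2 and 3 and 0.89 without replicate 1. In TPM, RELA was 87.2, 92.4 and 95.8 under water and 113.5, 100.3 and 107.0 under TNF-α, with a log2 fold change of 0.22 (limma adjusted p = 0.204). The log2 ratios of RELA to its NC mean in TNF-α replicates 1, 2 and 3 were 0.34, 0.96 and 0.87. The medians for genes of high GC content given above were -0.04, 0.84 and 0.69. The nearby gene SIPA1, which lies 2666 bases away on the opposite strand, had 8.93, 9.58 and 10.6 FPKM in NC and 9.23, 19.9 and 17.3 in TNF-α libraries, so that it was above the controls in replicates 2 and 3 and within their range in replicate 1. After the correction for GC content and length the RELA log2 fold change was 0.47 (limma adjusted p = 0.0843). The part that library composition has in the RELA values was not tested.

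REL (ENSG00000162924, chr2:60881521-60931610, plus strand) encodes c-Rel, a canonical subunit best known from lymphocytes. The controls had 0.569, 0.602 and 0.520 FPKM, and the treated libraries 0.922, 0.0410 and 0.0563 FPKM. Replicate 1 was above, and replicates 2 and 3 were below, all controls. The reads behind these values numbered 271, 260 and 220 in NC and 390, 14 and 18 in TNF-α libraries. Exact 95% Poisson intervals, which cover counting error only, ran from 0.832 to 1.02 FPKM in TNF-α replicate 1 and from 0.0224 to 0.0688 and 0.0334 to 0.0890 in replicates 2 and 3, against an upper bound of 0.680 in the highest NC library. The spread within the TNF-α group was therefore larger than counting error. In a fit of the 31662 genes with a value above 0 in any library, in which 0.0474% of genes were lower past the threshold, the log2 fold change of REL was -0.28 (SE 0.25, limma adjusted p = 0.54). It was 0.30 without TNF-α replicates 2 and 3 and -0.58 without replicate 1, so no direction can be given. Among the 1238 tested genes that share its length class (over 8 kb) and a GC content under 45%, the median log2 ratio to NC was 0.020, -1.0 and -0.91 in TNF-α replicates 1, 2 and 3, and the tenth percentile was -0.23, -2.09 and -1.87. The ratio of REL was above that median in replicate 1, at 0.71, and below that percentile in replicates 2 and 3, at -3.78 and -3.32. The part that library composition has in the REL values was not tested. Further, 43.3% of the exonic length of REL (5702 bases) is shared with AC010733.2 on the same strand, which was listed at 0 in all libraries, and how shared reads were assigned is not stated.

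**Figure D2:**
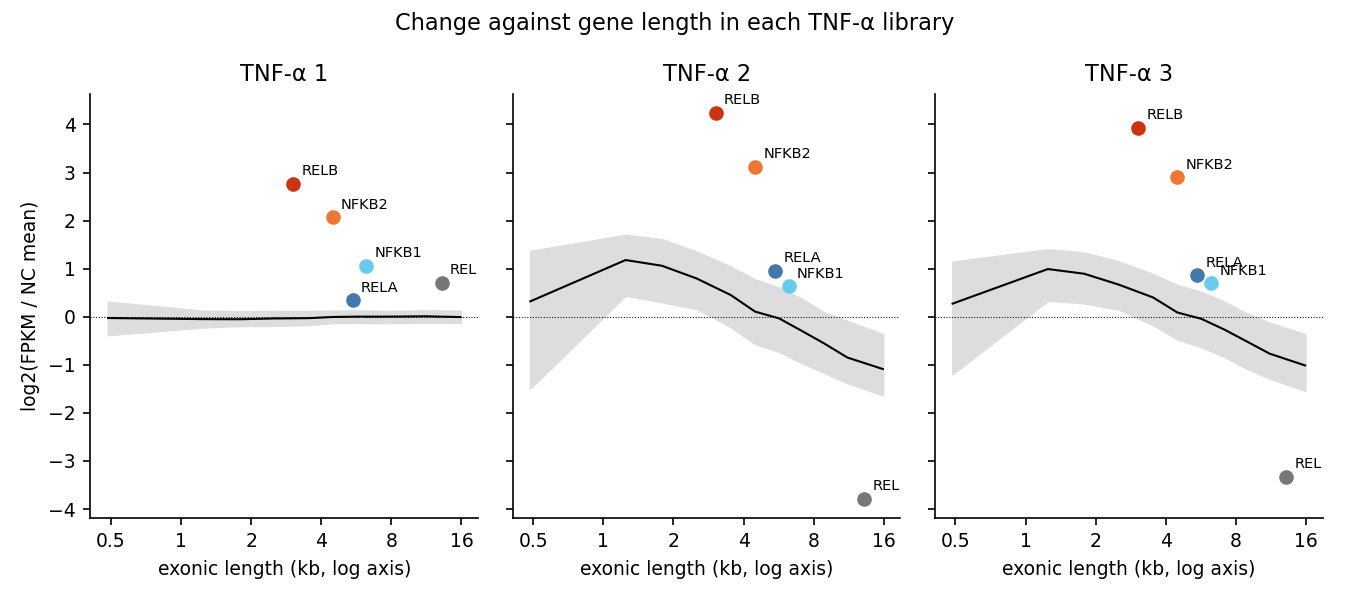
Log2 ratio of FPKM to the NC mean against exonic length (kb, log axis) in each TNF-α library, with the median (line) and middle 50% (grey band) of tested genes in bins of length and the 5 subunits as coloured points. The line was flat in replicate 1 and fell with length beyond about 1 kb in replicates 2 and 3, where REL lay at -3.78 and -3.32. RELB, NFKB2, RELA and NFKB1 were above the band in all 3 panels, RELB and NFKB2 by the most.

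The make-up of the family differed between the groups. The summed FPKM of the 5 transcripts was 55.5, 54.3 and 62.8 under water and 168.8, 339.9 and 291.9 under TNF-α. In TPM the sums were 214, 212 and 236 against 633, 734 and 715, so that the treated libraries differed less from each other on that scale. In all 3 NC libraries the order of levels was RELA, NFKB2, NFKB1, RELB and REL. In all 3 TNF-α libraries it was NFKB2, RELB, RELA, NFKB1 and REL. Neighbours in these orders had separate ranges of FPKM, except that NFKB1 (lowest 8.33) and RELB (highest 8.34) met in NC and that NFKB2 (71.9 to 149.6) and RELB (46.8 to 129.7) overlapped in TNF-α. RELA, at 46.5 at most in TNF-α, lay just under the lowest RELB value. RELA made up 41.6% ± 1.71 of the sum in NC and 15.5% ± 2.19 in TNF-α, and RELB 11.8% ± 1.28 and 33.9% ± 5.49 (SD, n = 3 each). NFKB2 went from 29.8% ± 0.759 to 43.6% ± 0.853 and NFKB1 from 15.7% ± 0.492 to 6.80% ± 3.85. Together, the genes of the non-canonical dimer, NFKB2 and RELB, held 41.7% ± 1.57 of the sum in NC and 77.5% ± 6.32 in TNF-α. In the TNF-α libraries this pair held 70.3% at the lowest and 82.2% at the highest. NFKB1 held 11.2%, 4.15% and 5.02% in TNF-α replicates 1, 2 and 3. The part that library composition has in these shares was not tested. Among protein-coding genes ranked by mean FPKM, RELB moved from the percentile 70.7 to 97.0 and NFKB2 from 85.7 to 97.6, whereas RELA was at 90.0 and 92.6, NFKB1 at 75.4 and 82.6, and REL at 44.7 and 42.2.

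**Figure D3:**
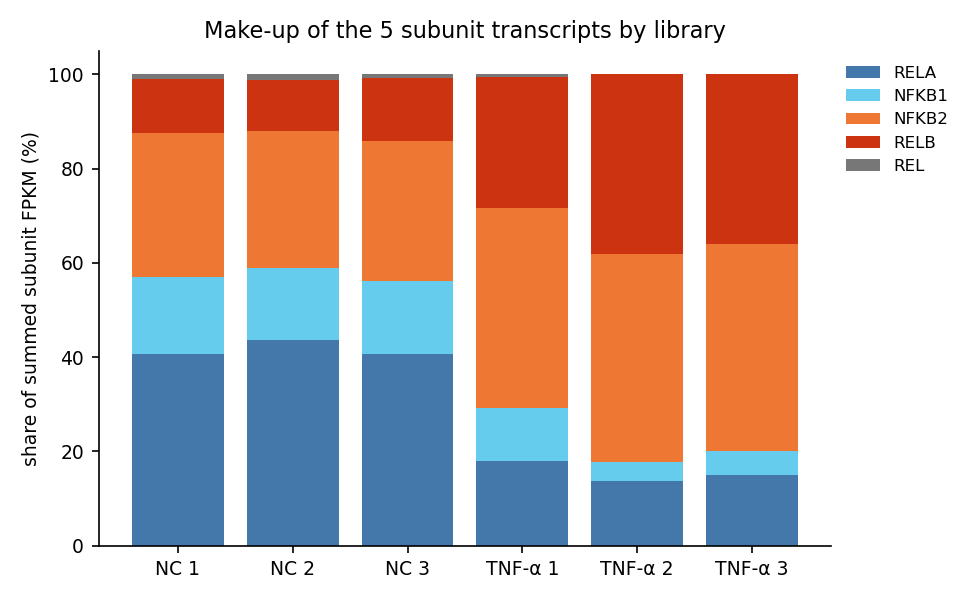
Share (%) of each subunit in the summed FPKM of the 5 genes, 1 bar per library. RELA was the largest segment in the 3 NC bars (40.6% to 43.6%) and NFKB2 in the 3 TNF-α bars (42.6% to 44.1%), and RELB took 27.7% to 38.2% of the TNF-α bars.

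To compare subunits independently of library scaling, the FPKM ratio of each of the 10 pairs was formed within each library. RELB to RELA was 0.279, 0.249 and 0.327 in NC and 1.54, 2.79 and 2.40 in TNF-α libraries, so RELB transcripts went from fewer to more than those of RELA in every library. NFKB2 to NFKB1, the precursors of the non-canonical and the canonical pathway, was 1.88, 1.90 and 1.91 in NC and 3.80, 10.6 and 8.79 in TNF-α libraries. The NC values of that ratio were tightly grouped, and the treated values were not. RELB to NFKB2 was 0.371, 0.373 and 0.446 in NC and 0.651, 0.867 and 0.814 in TNF-α libraries, without overlap. NFKB1 to RELA, the classic canonical pair, was 0.400, 0.352 and 0.383 in NC and 0.625, 0.304 and 0.335 in TNF-α libraries. This ratio was above all controls in replicate 1 and below them in the other two. The exact two-sided permutation test gave p = 0.1, the smallest that 3 against 3 libraries allow, for 8 of the 10 pairs (0.125 adjusted over the 10 pairs), 0.4 for REL to RELA and 1 for NFKB1 to RELA.

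The difference from RELA was also fitted across all genes, with log2(FPKM + 1) of RELA subtracted in each library. NFKB2 changed by 1.93 more than RELA (SE 0.16, limma adjusted p = 0.00742) and RELB by 2.78 more (SE 0.24, limma adjusted p = 0.00916), in a fit in which 0.816% of genes were higher past the threshold. NFKB1 differed from RELA by 0.040 (SE 0.28, limma adjusted p = 0.911), a value that was 0.66 without TNF-α replicates 2 and 3 and -0.27 without replicate 1. The sign of that difference thus depended on the libraries. For REL the difference was -0.99 (SE 0.36, limma adjusted p = 0.0284), but 75.1% of the genes of that fit were lower past the threshold, so that nothing is read from it.

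**Figure D4:**
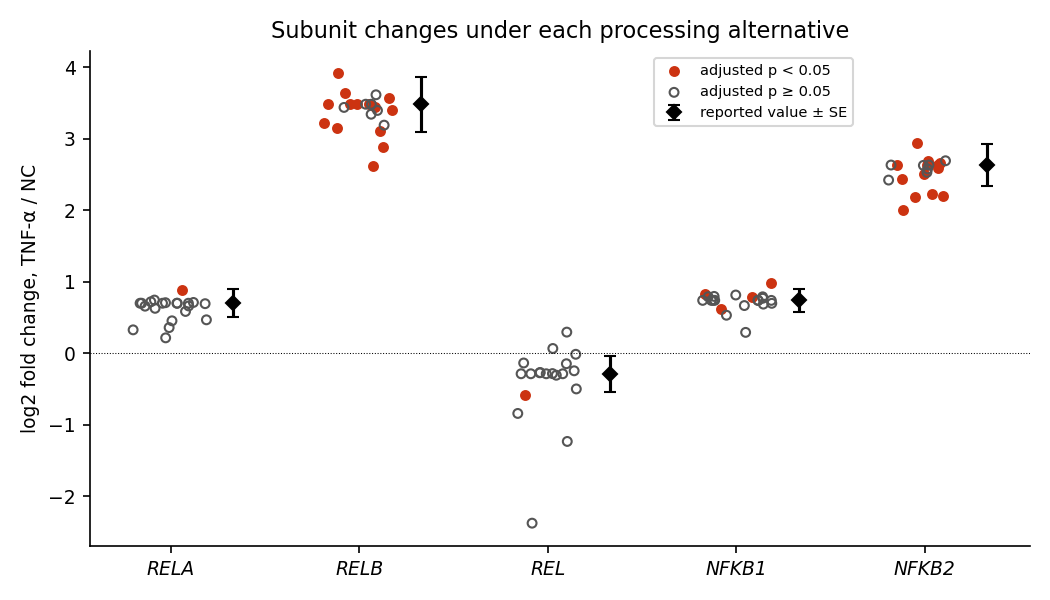
Log2 fold change (TNF-α / NC) of each subunit as reported (black diamond with its SE) and under each processing alternative, filled where the limma adjusted p was under 0.05, which includes fits without TNF-α replicate 1 or with that treated library alone. RELB (2.62 to 3.92) and NFKB2 (2.01 to 2.95) stayed far from 0, NFKB1 (0.29 to 0.99) and RELA (0.22 to 0.89) stayed above it, and REL (-2.37 to 0.30) lay on both sides.

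The rest of the pathway was described by role with 8 hand-written lists of 87 genes, of which 69 were tested, 17 were higher past the threshold and 0 lower, against the backgrounds of 0.717% and 0.297% above. The lists were chosen with earlier results of these data known, so that these counts describe the genes and test nothing. The IkB proteins keep the subunits in the cytoplasm or act with them in the nucleus. Of 6 tested, 2 rose, and their median log2 fold change was 1.45, where the median over all tested genes was 0.043. NFKBIA, the inhibitor of RelA dimers that is destroyed and remade during signalling, was at 13.0, 13.3 and 14.4 FPKM in NC and 75.3, 117.7 and 112.2 in TNF-α libraries (log2 fold change 2.79, limma adjusted p = 0.00415). NFKBIE, a second cytoplasmic inhibitor, was at 5.25, 5.10 and 6.30 and at 25.7, 59.5 and 49.5 (2.73, limma adjusted p = 0.0202).

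Of 14 genes of the IKK complex and its activators, all tested, 0 passed the threshold in either direction in limma, with 6 at an unadjusted p under 0.05 and a median log2 fold change of 0.066 that was -0.42 in TPM, where the median of all genes was also -0.42. Among 9 genes of the non-canonical pathway, 6 were tested and 1 rose, with a median of 0.59. That gene was BIRC3, a ubiquitin ligase that helps keep NIK low, at 2.80, 3.06 and 2.87 FPKM in NC and 28.7, 16.8 and 17.3 in TNF-α libraries (log2 fold change 2.45, limma adjusted p = 0.00996). MAP3K14, which encodes NIK itself, was at 13.2, 13.0 and 13.7 FPKM and at 8.21, 11.1 and 11.1, with a log2 fold change of -0.38 that did not pass the threshold (limma adjusted p = 0.195). After the correction for GC content and length MAP3K14 was at -0.63 and passed the threshold, in a fit with 101 of 12136 tested genes lower. It was named after its values were seen, as the kinase of the pathway.

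Of 8 brakes of the pathway, 7 were tested and 2 rose, with a median of 0.43. TNIP1 encodes a ubiquitin-binding partner of the A20 protein and was at 20.5, 20.5 and 23.7 FPKM in NC and 100.5, 191.2 and 160.1 in TNF-α libraries (log2 fold change 2.70, limma adjusted p = 0.0112). TNFAIP3, which encodes A20, was at 4.14, 3.44 and 4.22 and at 57.6, 18.9 and 26.8 (2.70, limma adjusted p = 0.0421), and like NFKB1 it was highest in TNF-α replicate 1. Of 11 genes for precursor processing and subunit turnover, 10 were tested and 0 passed in limma, with 0 at an unadjusted p under 0.05 and a median of 0.19. Of 13 nuclear cofactors and modifiers of RelA, 12 were tested and 0 passed in limma, with 3 at an unadjusted p under 0.05 and a median of -0.29.

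Canonical target genes were counted last. Of 20, 14 were tested and 12 rose, with a median of 2.96. Of these 14, 3 (BCL2A1, TNF and IL6) were under 1 FPKM in all NC libraries and passed the filter only through the TNF-α libraries, and of the other 11 tested, 10 rose. The median still includes these 3, and the 17 higher genes of all lists still include BCL2A1 and TNF. The largest changes were in the chemokine genes CCL2 (log2 fold change 5.33), CXCL8 (4.12) and CXCL10 (3.94), with limma adjusted p values of 0.000833, 0.000996 and 0.000833. None of 6 targets ascribed to the non-canonical pathway (CXCL12, CXCL13, CCL19, CCL21, TNFSF11 and TNFSF13B) passed the filter, so that this list was not tested. The highest of them was TNFSF13B, which encodes the cytokine BAFF, at 0.199 to 0.229 FPKM in NC and 0.323 to 0.397 in TNF-α libraries. It was named after its values were seen. Once GC content and length were corrected for, the 7 lists with tested genes had, in the order given, 4, 0, 3, 3, 0, 0 and 12 genes past the threshold. All were higher except MAP3K14. In that fit 1.32% of all tested genes were higher, and 101 of 12136 were lower. Without TNF-α replicates 2 and 3 the median log2 fold changes of the 7 lists were, in that order, 1.03, 0.069, 0.31, 0.24, -0.020, -0.026 and 2.67. Over all tested genes the median was then -0.0065.

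**Figure D5:**
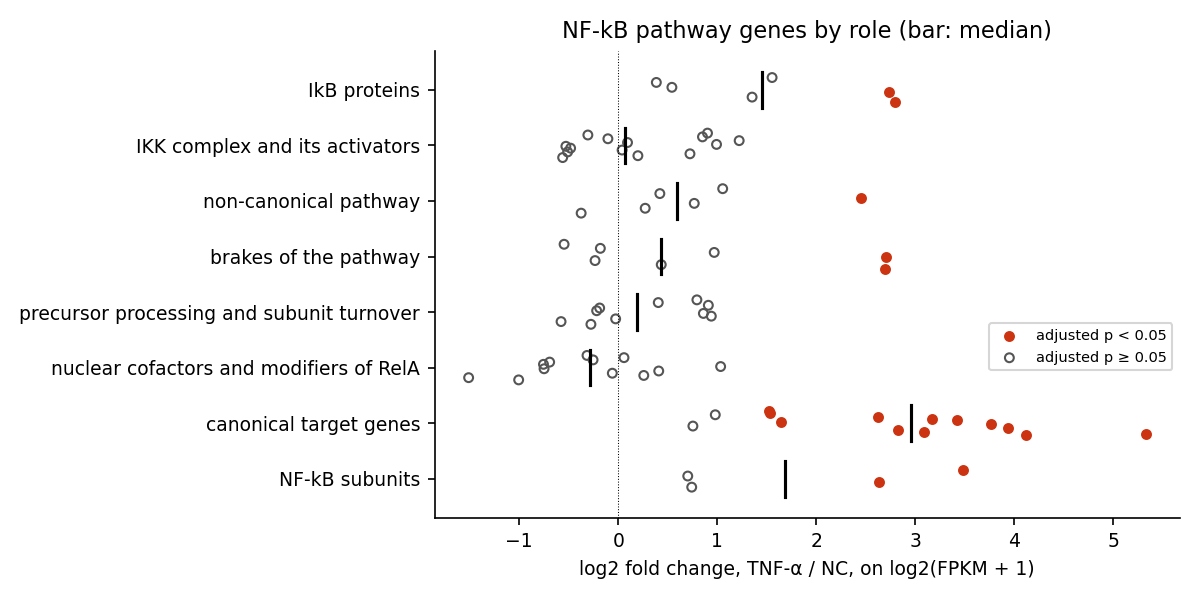
Log2 fold change (TNF-α / NC, on log2(FPKM + 1)) of the tested genes of 7 pathway lists and of the 4 tested subunits, filled where the limma adjusted p was under 0.05, with a bar at each median. The medians were 1.45 for the IkB proteins, 0.066 for the IKK complex and its activators and 2.96 for the canonical targets.

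Genes of like pattern were found by the root mean square difference (RMS) between changes of log2(FPKM + 1) from the NC mean over the 6 libraries. A shared order of libraries is favoured by this choice and is no separate result. For NFKB2 the nearest of the tested genes were TNIP1 (RMS 0.074), C1QTNF1 (0.084) and NFKBIE (0.084), of which TNIP1 and NFKBIE are on the lists above. For RELB they were IL4I1 (0.15), IL32 (0.24) and CSF2 (0.26), which encode an amino acid oxidase and 2 cytokines. IL32 and CSF2 were under 1 FPKM in all NC libraries and passed the filter only through the TNF-α libraries. IL4I1 was at 1.72, 1.19 and 2.06 FPKM in NC and 18.5, 43.8 and 39.7 in TNF-α libraries, which gave it the same order of treated libraries as RELB. For NFKB1 they were ANTXR2 (0.054), ETS2 (0.059) and XDH (0.061), each highest in TNF-α replicate 1 as NFKB1 was. For RELA they were CIR1 (0.035), UTP14A (0.039) and POLR3D (0.046), and for REL PTPN21 (0.036), NUP50 (0.041) and ZNF451 (0.041), all at FPKM values above that of REL. The added 1 shrinks the change of a gene as low as REL, and these genes were near it on that scale only, since PTPN21 was at 5.02, 5.12 and 4.75 FPKM in NC and 6.25, 3.19 and 2.93 in TNF-α libraries.

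The 5 NFAT genes, which share the Rel homology domain with the subunits, were set beside REL because all have long exonic sequence (8286 to 16401 bases). NFATC1, NFATC2 and NFATC4 were below 1 FPKM in all libraries. NFATC1 (9068 bases) was at 0.415, 0.363 and 0.443 FPKM in NC and 0.395, 0.515 and 0.395 in TNF-α libraries. It was thus not low in TNF-α replicates 2 and 3. NFAT5, the longest, was at 6.68, 7.24 and 5.90 FPKM in NC and 7.16, 0.529 and 0.439 in TNF-α libraries, and NFATC3 (8806 bases) at 5.72, 5.20 and 5.50 and at 5.13, 1.70 and 1.68. Both were low in the libraries in which REL was low and near the controls in TNF-α replicate 1. CLASRP, which lies 842 bases from RELB on the same strand, was at 9.45, 10.7 and 12.6 FPKM in NC and 10.6, 21.5 and 19.3 in TNF-α libraries. In TNF-α replicate 1, CLASRP was within the range of the controls while RELB was 6.83-fold above their mean.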

How the data were processed

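RNA-seq was analysed in 6 libraries of U251 cells (3 NC, 3 TNF-α), assigned by sample title. Total RNA was purified with oligo(dT) beads and made into libraries with a NEBNext Ultra kit. The authors deposited gene-level FPKM, 1 column per library, beside each gene's length, neither pooled nor log transformed. The submitters' processing notes name HISAT2 2.0.5, StringTie 1.3.3b, featureCounts 1.5.0, GATK 3.7, DESeq2 and edgeR without roles. The use of strand in counting is not given in the sources used here. All 58735 genes matched GENCODE release 29 (GRCh38) in identifier, coordinates and merged exon length. A further 6 columns of per-sample values match no sample described here and were not used.

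In each library, FPKM times gene length came in whole steps for 100% of values (tolerance 0.01 reads), which gave whole reads. The ratio of the library size inside FPKM to the reads in genes was 0.925 to 0.959 in NC and TNF-α replicate 1, and 0.693 and 0.759 in TNF-α replicates 2 and 3. It multiplies all FPKM of a library alike. Expression was tested as log2(FPKM + 1) with limma 3.58.1 in R 4.3.3 (eBayes with intensity trend, two-sided) in genes at an FPKM of 1 or more in 3 or more libraries. The Benjamini-Hochberg adjustment ran over all tested genes, with a threshold of 0.05. REL fell below the filter, and its fit used every gene above 0 in at least 1 library. Each mean log2 value was also compared by an exact two-sided permutation test, which gave p = 0.4 for REL and p = 0.1, the smallest that 3 against 3 allow, for the other members. Ratios used all 10 pairs. The scripts were tested on simulated data. Tables were made with Python 3.11.15, pandas 2.3.3, numpy 2.4.6 and scipy 1.17.1, and plots with matplotlib 3.10.9.

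The members, the 8 pathway lists and the markers were chosen with earlier results of these data known. Named genes were the members, up to 3 list genes past the threshold by absolute fold change, and the 3 tested genes nearest in pattern to each member. SIPA1, CLASRP, AC010733.2 and the NFAT genes were named after their values were seen. Alternatives were other pseudocounts, filters, scalings and fits, a length correction, a replicate block, each library left out in turn and TNF-α replicates 2 and 3 left out together. The correction for GC content and length (natural splines, 5 degrees of freedom each), the REL fit and the ratios with libraries left out were added after seeing the data.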

Additional observations from a re-analysis of the deposited data

How the results depend on the processing

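Across 21 alternatives NFKB2 ranged from 2.01 to 2.95 and RELB from 2.62 to 3.92 in log2 fold change, NFKB1 from 0.29 to 0.99 and RELA from 0.22 to 0.89, all higher in TNF-α. NFKB2 and RELB passed the threshold (limma adjusted p) in 14 of the 21. They missed it without a filter on low values (2.63 and 3.48, limma adjusted p = 0.0524 and 0.058), with the replicate block, and in 5 of 6 fits with 1 library left out. The 5 that missed gave 2.42 to 2.69 and 3.19 to 3.62. All 6 fits with 1 library left out gave 2.42 to 2.95 and 3.19 to 3.92. In those fits NFKB1 was 0.62 to 0.82, RELA 0.59 to 0.89 and REL -0.58 to -0.13. NFKB1 passed with a length correction (0.83) and with the GC and length correction (0.79). Without TNF-α replicate 1, where 79.4% of the 12136 tested genes passed, NFKB1 was 0.62, RELA 0.89 and REL -0.58. NFKB1 was 0.99 without TNF-α replicates 2 and 3. No test is read from either fit, and both count among the 14 that NFKB2 and RELB passed. The fit without replicates 2 and 3 assumes that the lone treated library varies like the controls. REL reversed to 0.30 without those replicates and to 0.069 with the GC and length correction. Scaling moved the median log2 fold change of all genes from 0.043 to -0.42 in TPM and -0.22 in limma-voom on recovered reads, and relative to that median TPM gave 0.71 for NFKB1, 0.63 for RELA, 2.60 for NFKB2 and 3.53 for RELB.

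Relative to RELA, 1 library left out gave -0.27 to 0.23 for NFKB1, which reversed without NC replicate 2 (-0.01) and TNF-α replicate 1 (-0.27), 1.84 to 2.06 for NFKB2, 2.61 to 3.03 for RELB and -1.46 to -0.72 for REL, the last 3 missing the threshold in 4 of 6 fits each. Without TNF-α replicates 2 and 3 NFKB1 was 0.66 and REL -0.032. REL also missed the threshold at pseudocounts of 0.1 (-1.95) and 0.5 (-1.21), with the length correction (-0.73) and with the GC and length correction (-0.53). The log2 ratio of NFKB1 to RELA was -0.24 to 0.28 with 1 library left out, reversed without TNF-α replicate 1, and that of REL to RELA to 0.37 without replicates 2 and 3. The number of genes past the threshold, 123, became 58 without a filter, 79 at an FPKM of at least 5, 58 in TPM, 185 with quantile normalization, 76 with limma-voom, 261 with the GC and length correction, 732 without TNF-α replicates 2 and 3, and 10 to 9630 with 1 library left out, the highest without TNF-α replicate 1. The causes were not tested.

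With the replicate number as a block (replicate block), the log2 fold changes were 2.63 for NFKB2 (limma adjusted p = 0.0789) and 3.48 for RELB (0.0545), those relative to RELA 1.93 and 2.78 (both 0.0517), and 24 genes passed. Deviations of same-numbered libraries correlated at -0.01, -0.18 and 0.12, and those of other numbers at -0.16 to 0.18. The deviations in the TNF-α group include the difference in composition of replicates 2 and 3. Such correlations therefore cannot settle whether the numbers pair the samples. The design has 3 libraries a group, and REL rests on 14 and 18 reads in TNF-α replicates 2 and 3, which limits its values there.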
